A study of Mus musculus with 2 samples.

Results

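Interferon-stimulated genes are the genes that a cell switches on when it senses an interferon. A list of 39 of them was followed in single CD45+ cells of naive and bleomycin-injured mouse lungs, and 38 had a column in the count tables, out of 24785 genes listed in either table. Mx2 had no column in either table and counted as 0 in the sums. The rule that lists them uses no measured value, though the list was chosen with earlier results of these data known. CD45 marks cells of blood origin, and bleomycin (BLM) is a drug that breaks DNA and is given to mice to bring about lung injury and scarring. Living CD45+ lung cells of C57BL/6N mice aged 10 to 16 weeks were sorted and read by BD Rhapsody single-cell RNA-seq. The BLM library was a pool of 3 mice taken on day 15 after 50 µg of bleomycin into the trachea, and the naive library was a pool of 3 untreated mice. Each condition is thus 1 library with no map from cell to mouse, so no test between conditions was possible, and the animals, the cell preparation and the library cannot be told apart from the treatment. All intervals below are 95% intervals that cover counting error only.

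Interferons bind receptors on the cell surface and signal through the JAK kinases. Type I interferons act through IFNAR1 and IFNAR2 and assemble the factor ISGF3, which holds STAT2 and IRF9 and binds a short element in the promoters of its target genes. Interferon gamma acts through receptors of its own and reaches an overlapping set of genes. The products include sensors of foreign RNA and DNA, the IFIT proteins that bind viral RNA, the OAS proteins that start RNA breakdown by RNase L, the ubiquitin-like protein ISG15 and its partners, interferon-induced GTPases, and enzymes that alter nucleotides. Respiratory viruses are known to raise this programme in the lung.

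The members lay on 14 chromosomes. The 5 Ifit genes listed were all on chromosome 19 and the 5 Oas and Oasl genes all on chromosome 5. To look for the element that ISGF3 binds, RefSeq promoter windows (GRCm38.p6, 250 bases before to 50 after each start) were searched on both strands for GAAANNGAAA. This reads TTTCNNTTTC on the other strand and is a core of that element. Overlapping matches were counted separately. Of the 29 members with a window, 16 (55.2%) held a match, against 1079 of 27025 genes (3.99%), or 1131 of 32851 windows (3.44%). The 200 bases before the start are printed for 6 members, in lower case on the gene's strand with matches in capitals. Isg15, Ifit1, Ifit3 and Bst2 are members with matches that are followed through the cell classes below, while Irf7 and Samhd1 had none in the same stretch. The windows are chr4:156200819-156201018 (minus strand) for Isg15, chr19:34640689-34640888 (plus) for Ifit1, chr19:34583329-34583528 (plus) for Ifit3, chr8:71537473-71537672 (minus) for Bst2, chr7:141266425-141266624 (minus) for Irf7 and chr2:157135097-157135296 (minus) for Samhd1.
Isg15: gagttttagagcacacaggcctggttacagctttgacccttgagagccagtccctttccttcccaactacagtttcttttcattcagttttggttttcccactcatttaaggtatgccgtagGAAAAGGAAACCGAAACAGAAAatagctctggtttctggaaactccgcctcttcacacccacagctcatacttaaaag
Ifit1: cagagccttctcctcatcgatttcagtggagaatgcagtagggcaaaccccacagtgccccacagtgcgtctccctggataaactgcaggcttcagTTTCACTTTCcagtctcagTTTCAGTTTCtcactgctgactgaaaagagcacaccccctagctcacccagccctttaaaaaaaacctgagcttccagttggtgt
Ifit3: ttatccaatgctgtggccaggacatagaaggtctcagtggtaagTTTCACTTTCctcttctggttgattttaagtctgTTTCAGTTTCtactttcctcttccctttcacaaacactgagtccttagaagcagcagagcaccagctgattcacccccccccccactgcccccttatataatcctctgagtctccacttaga
Bst2: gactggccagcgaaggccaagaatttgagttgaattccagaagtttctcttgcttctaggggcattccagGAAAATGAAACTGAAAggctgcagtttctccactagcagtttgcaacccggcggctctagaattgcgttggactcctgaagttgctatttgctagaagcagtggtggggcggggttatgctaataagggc
Irf7: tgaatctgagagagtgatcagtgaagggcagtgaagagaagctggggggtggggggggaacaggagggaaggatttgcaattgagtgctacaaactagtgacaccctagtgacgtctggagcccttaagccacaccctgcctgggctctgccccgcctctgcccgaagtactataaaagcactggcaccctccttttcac
Samhd1: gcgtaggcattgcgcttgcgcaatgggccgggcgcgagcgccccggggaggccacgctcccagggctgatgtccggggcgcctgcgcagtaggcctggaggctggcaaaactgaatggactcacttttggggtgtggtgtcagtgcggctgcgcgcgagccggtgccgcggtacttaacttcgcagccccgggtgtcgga

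In Isg15, 3 overlapping matches began 78, 72 and 66 bases before the start. Ifit1 held 2 matches at 104 and 85 bases, Ifit3 held 2 at 156 and 122, and Bst2 held 2 overlapping ones at 130 and 124. These are matches of letters and not measured binding sites.

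The naive library held 4062 cell indexes with 18019004 UMIs (unique molecular identifiers, 1 per captured RNA molecule), and the BLM library 4714 with 22490782. Kept were cells in which no fewer than 200 genes were found and mitochondrial genes gave up to 15% of UMIs, that is 3925 naive cells (median 2759 UMIs) and 4526 BLM cells (median 2437). Of the kept cells, 20 carried an index found in both libraries. Cells were placed in classes by marker genes, none of them a member, and a class name stands for cells that resemble that type by these markers. In 10 of the 11 classes compared, 3 or more of the class's own markers were among its 10 leading genes, and in group 2 innate lymphoid cells (ILC2), led by Il5 and Csf2, none was. Since the cells were placed by these same markers, this count is no independent check of the class names. Unclassed cells made up 4.54% of naive and 9.63% of BLM cells. RNA of the neutrophil genes S100a8 and S100a9 stood at 183 counts per 1000000 UMIs (CPM) in naive B cells and 181 CPM in BLM B cells, so free RNA of this source was at a like level in both libraries.

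Over all kept cells, the members together made up 2194 CPM in the naive library (38905 UMIs) and 1649 CPM in the BLM library (36492 UMIs), a log2 ratio of BLM over naive of -0.41 [-0.43, -0.39]. Samhd1, a phosphohydrolase that depletes nucleotides, gave 30.4% of all member UMIs, Ifi27l2a, a small interferon-induced membrane protein, 9.41%, and Trim30a, a TRIM protein, 7.59%. Among the 11 classes compared, the summed level was highest in the classical monocytes and neutrophils of the naive lung, which also had the lowest ratios of BLM over naive with the classes as gated by markers. In classical monocytes, the Ly6C-bearing cells that arrive from blood, it was 7873 CPM [7672, 8078] in 164 naive cells and 3789 CPM [3662, 3920] in 192 BLM cells, 2.08-fold lower (log2 -1.06 [-1.12, -0.99]). In neutrophils it was 6378 CPM [6198, 6562] in 459 naive cells and 2705 CPM [2620, 2792] in 1006 BLM cells, 2.36-fold lower (log2 -1.24 [-1.30, -1.18]). Nonclassical monocytes, which patrol vessel walls, stood at 4459 CPM in 245 naive cells and 3037 CPM in 163 BLM cells (log2 -0.55 [-0.64, -0.47]).

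Lymphocytes carried lower sums and were also lower in BLM. B cells held 2041 CPM in 794 naive cells and 1230 CPM in 587 BLM cells (log2 -0.73 [-0.81, -0.65]). T cells held 2222 CPM in 671 naive cells and 1629 CPM in 786 BLM cells (log2 -0.45 [-0.51, -0.38]). NK cells, by contrast, stood at 1539 CPM in 273 naive cells and 1484 CPM in 143 BLM cells, with an interval of the ratio that spans 0 (log2 -0.05 [-0.21, 0.11]). In ILC2 the sums were 1338 CPM in 93 naive cells and 1058 CPM in 50 BLM cells (log2 -0.34 [-0.61, -0.07]).

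Macrophages and dendritic cells were near or below these lymphocyte levels. Macrophages with the complement gene C1q, which hold interstitial and recruited cells, stood at 2058 CPM in 77 naive cells and 1566 CPM in 614 BLM cells (log2 -0.39 [-0.49, -0.30]). Alveolar macrophages, placed by markers of the macrophages of the air spaces, stood at 988 CPM in 667 naive cells and 1062 CPM in 233 BLM cells (log2 0.10 [0.04, 0.16]). Whether the BLM cells of this class were resident or recruited was not tested. The cross-presenting dendritic cells cDC1 stood at 1285 CPM in 99 naive cells and 1526 CPM in 63 BLM cells (log2 0.25 [0.11, 0.38]), and cDC2 at 1848 CPM in 114 naive and 1560 CPM in 92 BLM cells (log2 -0.25 [-0.36, -0.13]). Alveolar macrophages and cDC1 were thus the only 2 of the 11 classes whose sum was higher in BLM, and in both the order turned when the 5% of cells with the highest member level in each library were left out (log2 -0.02 and -0.15).

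**Figure D1:**
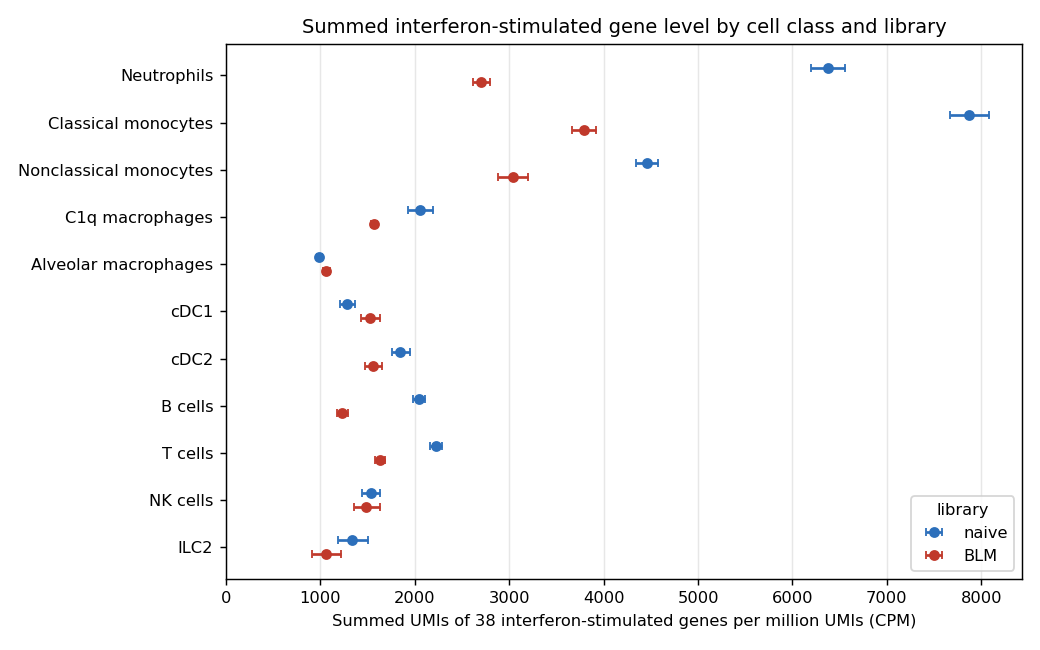
Summed level of the interferon-stimulated genes (CPM of all UMIs of the class) in each cell class of the naive and BLM libraries, with bars for the exact Poisson 95% interval. The naive classical monocytes (7873 CPM) and neutrophils (6378 CPM) stand above all other points, and alveolar macrophages and cDC1 are the classes where the BLM point lies above the naive one.

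Among the 11 classes compared, most members were at their highest in classical monocytes and neutrophils. In the naive library, 23 of the 38 members reached their highest level in classical monocytes, 12 in neutrophils and 1 each in NK cells, T cells and cDC1. In the BLM library the leading classes were more spread, with 10 members in classical monocytes, 10 in neutrophils, 7 in NK cells, 4 in cDC1, 2 each in C1q macrophages, nonclassical monocytes and T cells, and 1 in cDC2. The interval of the leading class lay wholly above that of the second class for 10 of the 23 and 10 of the 12 in the naive library, and for 1 of 10 classical monocyte, 7 of 10 neutrophil and 3 of 4 cDC1 members (Stat2, Ifit2 and Ifi35) in the BLM library. For the other members the intervals of the first and second class overlapped, and the difference between these classes was not tested. Among these classes Isg15 and Rsad2 were highest in neutrophils in both libraries, and Ifi27l2a was highest in classical monocytes in both. Some members were higher still in classes too small to compare, such as Bst2 at 1779.5 CPM (162 UMIs) in naive plasmacytoid dendritic cells and Ifi27l2a at 1015 CPM (93 UMIs) in naive regulatory T cells.

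To set the members against other genes, a gene was called lower or higher where its CPM differed 2-fold or more, among genes with 20 or more UMIs over both libraries in that class. In neutrophils 26 of the 33 members that passed this minimum were lower in BLM and none higher, against 5.83% of all 5815 genes lower. The median log2 ratio was -1.62 for these members and -0.08 for all genes. In 28 members the whole interval lay below 0, against 15.7% of all genes. Neutrophils were shallow, with a median of 1588 UMIs a cell in naive and 1336 in BLM, and the part of depth in these ratios was not tested.

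The IFIT genes showed the widest gap in neutrophils. Summed over the 5 genes, they stood at 264 CPM in naive (197 UMIs) and 29.7 CPM in BLM (42 UMIs), a log2 ratio of -3.15 [-3.67, -2.66]. Ifit1, which binds viral RNA at its leading end, was at 88.5 CPM (66 UMIs) in naive and 8.49 CPM (12 UMIs) in BLM (log2 -3.38 [-4.40, -2.48]). Ifit3, its partner in the IFIT complex, was at 93.9 CPM (70 UMIs) and 16.3 CPM (23 UMIs), log2 -2.53 [-3.28, -1.83]. Ifit2 had 20 UMIs in 6 naive cells (26.8 CPM) and none in BLM, 12.6-fold lower if BLM is set at a floor of 3 UMIs over the class. The upper end of its log2 interval was -3.23. Ifit3b is nearly identical to Ifit3 in sequence, so the split of reads between both is uncertain, as it is among the Oas1, Trim30 and Ifi200 families.

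The OAS genes, which read double-stranded RNA, stood at 978 CPM in naive neutrophils and 292 CPM in BLM ones (log2 -1.74 [-1.92, -1.57]), and all 5 were lower by 2-fold or more. The most counted of them, Oasl2, an OAS-like protein, was at 550 CPM in naive (410 UMIs) and 192 CPM in BLM (271 UMIs), log2 -1.52. Among the sensors, Zbp1, which binds Z-form nucleic acid and can start necroptosis, was at 32.2 CPM (24 UMIs) and 2.12 CPM (3 UMIs), log2 -3.92 [-6.30, -2.20]. Ifih1 (MDA5) and Ifi204 were also lower by 2-fold or more, at log2 -1.45 and -1.67, while Ddx58 (RIG-I) stood at log2 -0.77 and Ifi203, of the Ifi200 family, at 0.08 [-1.33, 1.63]. All 3 transcription factors of the list were lower by more than 2-fold: Irf7, the master factor of type I interferon production, went from 130 CPM in naive to 47.4 CPM in BLM (log2 -1.46 [-1.93, -0.99]), and Irf9 and Stat2, the partners in ISGF3, had log2 ratios of -1.23 and -1.14.

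Isg15, the ubiquitin-like modifier, stood at 854 CPM [789, 923] in naive neutrophils and 347 CPM [317, 379] in BLM ones (log2 -1.30 [-1.47, -1.13]). It was found in 228 of 459 naive and 259 of 1006 BLM neutrophils. Rsad2 (viperin), which makes a chain-terminating nucleotide, was at 528 CPM and 172 CPM (log2 -1.62), and its neighbour Cmpk2, a mitochondrial nucleotide kinase, at 60.3 CPM and 9.91 CPM (log2 -2.61). Ifi27l2a was at 393 CPM [349, 441] and 82.8 CPM [68.5, 99.3] (log2 -2.25 [-2.57, -1.93]). Samhd1, Isg20 and Bst2 differed less or were not separated. Samhd1 was at 1135 CPM and 884 CPM (log2 -0.36 [-0.49, -0.23]), and the exonuclease Isg20 at 157 CPM and 127 CPM, with an interval that spans 0 (log2 -0.30 [-0.64, 0.05]). Bst2 (tetherin), which holds budding viruses at the cell surface, had only 11 UMIs in each library (log2 -0.92 [-2.27, 0.42]). Besides Isg15, Ifit1, Ifit3, Irf7, Ifi27l2a and Bst2 in every class and the members with the most extreme intervals per class, genes are named in this account as examples chosen after their values were seen.

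**Figure D2:**
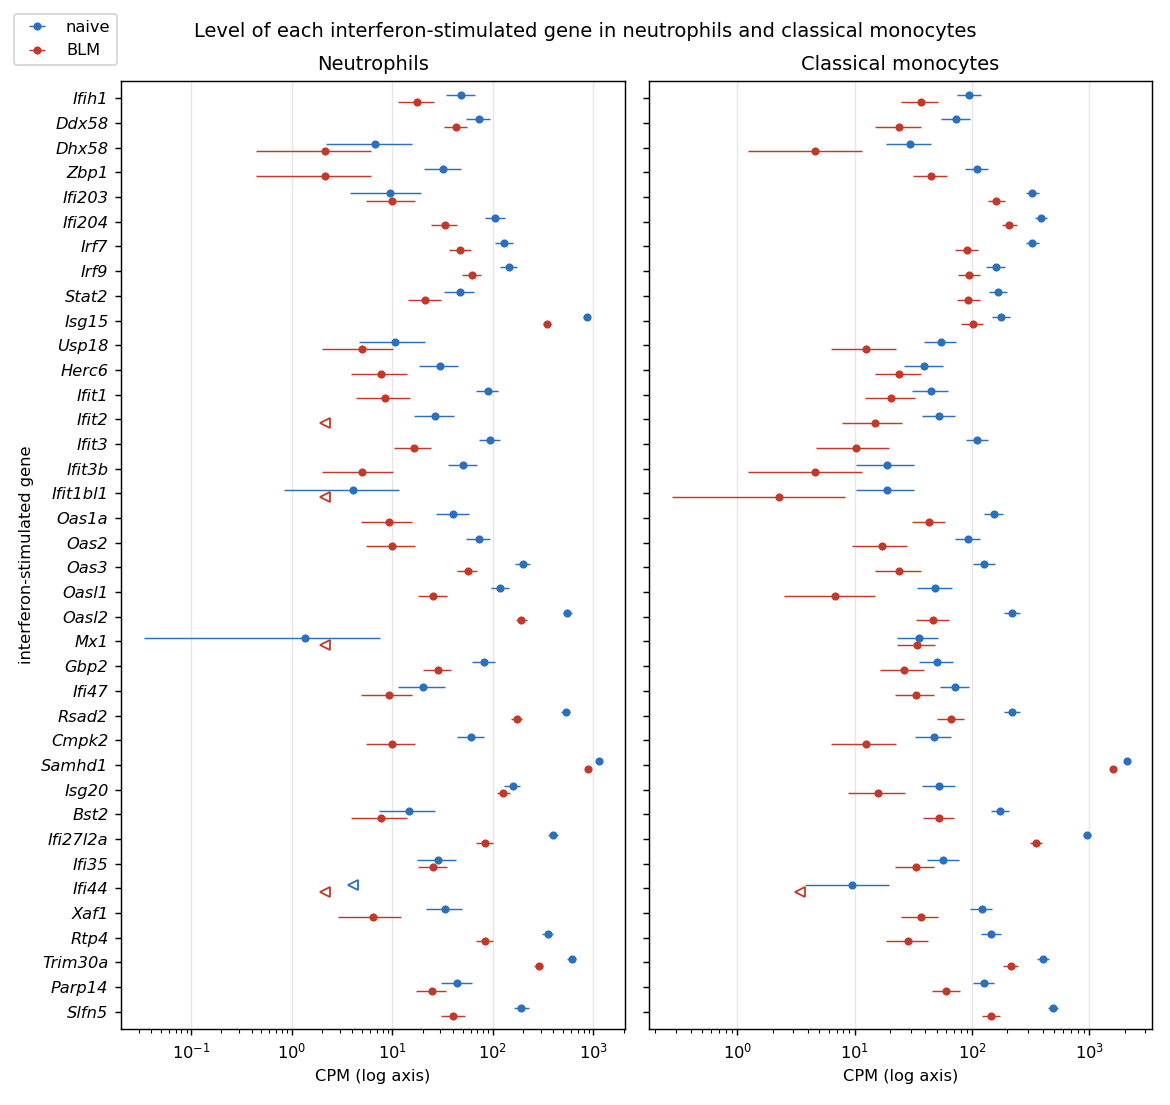
Level of each of the 38 members with a column (CPM, log axis) in neutrophils and classical monocytes of the naive and BLM libraries, ordered by role, with exact Poisson 95% intervals. Open triangles mark members with no UMI, drawn at the floor of 3 UMIs; most BLM points lie left of their naive partner, and Samhd1, Ifi35 and Ifi203 in neutrophils and Mx1 in classical monocytes lie close together.

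Neutrophils fell into a pair of graph clusters that the libraries filled differently, cluster 24 with 64.1% of BLM and 36.4% of naive neutrophils and cluster 25 with 33.8% and 61.9%. Within these clusters the summed level was still lower in BLM, with log2 ratios of -0.98 [-1.08, -0.88] and -1.24 [-1.33, -1.15].

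In classical monocytes 25 of 35 members were lower by 2-fold or more and none higher, against 4.55% of all 6660 genes lower. The median was -1.61 against -0.01 for all genes, and the interval lay below 0 for 33 members, against 10.9% of all genes. The OAS genes went from 641 CPM in naive to 138 CPM in BLM (log2 -2.22 [-2.52, -1.93]), with Oasl2 at 219 CPM (162 UMIs) and 46.6 CPM (41 UMIs) and Oas3, the long OAS form, at 127 CPM (94 UMIs) and 23.9 CPM (21 UMIs), log2 -2.23 and -2.41. The IFIT genes went from 246 CPM to 52.3 CPM (log2 -2.23 [-2.73, -1.76]). Ifit3 had the lowest ratio, with 111 CPM (82 UMIs) in naive and 10.2 CPM (9 UMIs) in BLM (log2 -3.44 [-4.62, -2.44]). Its naive UMIs came from 20 cells, and 3 of these gave 56 of the 82. Ifit1 was at 44.6 CPM in naive and 20.5 CPM in BLM (log2 -1.12 [-2.04, -0.25]), and there 3 cells gave 17 of the 18 BLM UMIs.

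Other members were found in many classical monocytes. Irf7 was at 326 CPM in naive (93 of 164 cells with a UMI) and 89.8 CPM in BLM (49 of 192 cells), log2 -1.86 [-2.24, -1.49]. Ifi27l2a was at 952 CPM and 350 CPM (log2 -1.44 [-1.64, -1.25]), Bst2 at 174 CPM and 52.3 CPM (log2 -1.74 [-2.26, -1.24]), and the schlafen family gene Slfn5 at 489 CPM and 144 CPM (log2 -1.76). Isg15 differed less here than in neutrophils, with 176 CPM in naive and 101 CPM in BLM (log2 -0.80 [-1.20, -0.40]). Samhd1 was at 2090.0 CPM and 1601 CPM (log2 -0.38 [-0.49, -0.28]), and Mx1, of the GTPase group, at 35.1 CPM and 34.1 CPM (log2 -0.04 [-0.85, 0.77]). Of the BLM classical monocytes 15.1% lay in graph cluster 3, a macrophage cluster, against 0.610% of the naive ones. Among those of cluster 5, which held most of both, the log2 ratio of the sum was -0.82 [-0.89, -0.75].

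Nonclassical monocytes showed the same order. Their BLM cells were shallower than the naive ones (median 2397 UMIs against 4267), and the part of depth in these ratios was not tested. Of 31 members, 17 were lower by 2-fold or more and none higher, against 5.02% of all 6715 genes lower, with a median of -1.14 against -0.01. Ifit3 had 31 UMIs in naive (26.0 CPM) and none in BLM, 4.02-fold lower at the floor of 3 UMIs, and the upper end of its log2 interval was -1.62. Rsad2 was at 68.7 CPM (82 UMIs, 46 of them from 3 cells) and 10.8 CPM (5 UMIs), log2 -2.67 [-4.33, -1.39], and Rtp4, a chaperone of cell-surface receptors, at 76.2 CPM (91 UMIs) and 12.9 CPM (6 UMIs), log2 -2.56 [-4.04, -1.38]. Isg15 (98.0 and 28.0 CPM, log2 -1.81 [-2.76, -0.98]), Ifi27l2a (593 and 228 CPM, log2 -1.38), Bst2 (101 and 45.2 CPM, log2 -1.16) and Irf7 (178 and 84.0 CPM, log2 -1.08) were lower as well. Ifit1 had 13 UMIs in naive and 6 in BLM, under the minimum. Samhd1, the most counted member in these cells, stood at 1704 CPM and 1630.4 CPM with an interval that spans 0 (log2 -0.06 [-0.19, 0.06]), and without Samhd1, Ifi27l2a and Trim30a the log2 ratio of the sum was -0.93 in place of -0.55.

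In B cells 12 of 29 members were lower by 2-fold or more and none higher, against 4.99% of all 8936 genes lower. All 29 ratios were below 0, against 61.5% of all genes (median -0.94 against -0.11). The IFIT and OAS sums had the lowest ratios of the 8 role groups, at 41.9 CPM and 4.46 CPM for the IFIT sum (log2 -3.23 [-4.72, -2.05]) and 66.8 CPM and 23.1 CPM for the OAS sum (log2 -1.53 [-2.15, -0.96]). Ifit3 had 41 UMIs in 31 of 794 naive B cells and 1 UMI in 587 BLM B cells (20.4 and 0.744 CPM, log2 -4.78 [-10.12, -2.22]). Rtp4 was at 18.4 CPM (37 UMIs) and 1.49 CPM (2 UMIs), log2 -3.63 [-6.73, -1.68], and Slfn5 at 42.4 CPM (85 UMIs) and 8.18 CPM (11 UMIs), log2 -2.37 [-3.43, -1.46]. Irf7 stood at 34.9 and 17.8 CPM (log2 -0.97 [-1.70, -0.28]) and Ifi27l2a at 206 and 130 CPM (log2 -0.66 [-0.93, -0.41]). For Isg15 (18.4 and 11.9 CPM, log2 -0.63 [-1.58, 0.25]) and Bst2 (30.9 and 20.1 CPM, log2 -0.62 [-1.33, 0.05]) the interval spans 0. Ifit1 had 7 UMIs in naive and none in BLM, under the minimum.

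In T cells the members were lower by a smaller margin. Of 32 members 5 were lower by 2-fold or more and none higher, against 3.51% of all 9463 genes lower, and the median was -0.44 against -0.08. Irf9 was at 80.9 CPM in naive and 44.9 CPM in BLM (log2 -0.85 [-1.22, -0.48]), Samhd1 at 617 and 416 CPM (log2 -0.57 [-0.69, -0.44]) and Oasl2 at 19 and 8.73 CPM (log2 -1.12 [-1.98, -0.30]). Ifit3 was at 16.9 and 7.85 CPM (log2 -1.11 [-2.02, -0.24]), whereas Ifit1 was at 21.0 and 19.6 CPM (log2 -0.10 [-0.74, 0.55]), with 22 of its 45 BLM UMIs in 3 cells. Irf7 (50.2 and 30.5 CPM, log2 -0.72 [-1.18, -0.26]), Bst2 (61.5 and 40.6 CPM, log2 -0.60 [-1.01, -0.20]) and Ifi27l2a (254 and 193 CPM, log2 -0.39 [-0.58, -0.21]) were lower with intervals below 0, and Isg15 was not separated (51.7 and 40.1 CPM, log2 -0.37 [-0.79, 0.06]).

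Within T cells the summed log2 ratio was -0.28 in CD4 T cells, -0.48 in CD8 T cells, -0.37 in gamma delta T cells and -0.52 in T cells placed in none of these. In CD4 T cells Samhd1 was the 1 of 19 members with an interval below 0 (635 and 362 CPM, log2 -0.81 [-1.10, -0.53]), against 9.78% of all genes. Isg15 was at 41.4 CPM in naive and 47.2 CPM in BLM (log2 0.19 [-0.80, 1.22]). Without Samhd1, Ifi27l2a and Trim30a the log2 ratio of the CD4 sum was -0.04 [-0.24, 0.16], and the libraries filled different clusters, with 48.9% of BLM CD4 T cells in cluster 15 and 67.4% of naive ones in cluster 23. In CD8 T cells Isg15 was at 50.2 and 17.2 CPM (log2 -1.54 [-2.59, -0.58]), Slfn5 at 47.2 and 11.9 CPM (log2 -1.98 [-3.24, -0.88]) and Ifi27l2a at 233 and 135 CPM (log2 -0.79 [-1.16, -0.41]). The difference between the subsets was not tested.

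The level per cell showed whether a sum rested on a few cells. In neutrophils the median cell held 4284 CPM of member UMIs in naive and 2077 CPM in BLM, and cells with no member UMI made up 0.654% of naive and 12.0% of BLM neutrophils. In classical monocytes the median cell held 6373 and 3348 CPM, in nonclassical monocytes 3595 and 2621 CPM, in B cells 1612 and 1033 CPM, and in T cells 1715 and 1222 CPM. In alveolar macrophages and cDC1, where the sum was higher in BLM, the median cell was not (876 and 815 CPM, and 998 and 785 CPM). In cDC1, 3 of the 63 BLM cells held 36.0% of all member UMIs of the class, against 18.7% in 5 of the 99 naive cells.

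**Figure D3:**
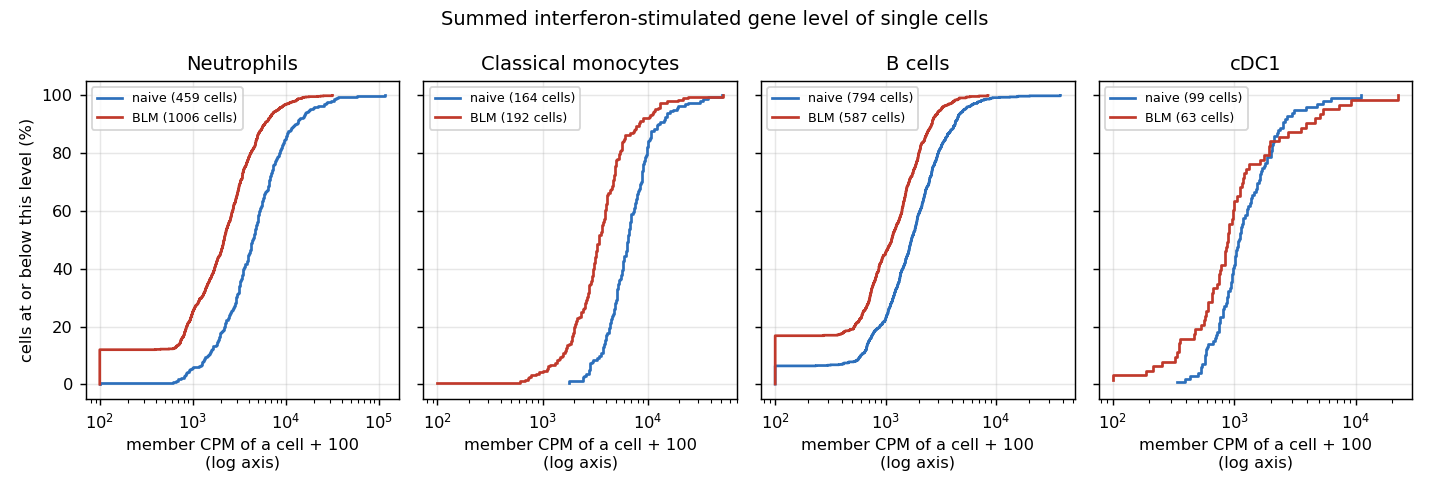
Share of cells (%, cumulative) at or below a summed member level (CPM of the cell's UMIs plus 100, log axis) in neutrophils, classical monocytes, B cells and cDC1, with 1 line per library. The BLM line lies left of the naive line over nearly its whole length in neutrophils, classical monocytes and B cells; in cDC1 the lines cross, with a lower BLM median (785 against 998 CPM) and a few BLM cells at the far right.

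Because cells differed in depth, each was also thinned to 1000 UMIs, and a cell was called high where 5 or more of these were member UMIs. High cells made up 47.7% of naive and 17.4% of BLM neutrophils, 70.4% and 32.9% of classical monocytes, 37.2% and 22.0% of nonclassical monocytes, 9.28% and 2.13% of B cells, and 11.5% and 6.10% of T cells. Unthinned shares were 69.9% and 28.9%, 99.4% and 95.3%, 89.8% and 68.1%, 39.7% and 17.9%, and 51.4% and 34.9% in the same order. Cells under 1000 UMIs were left out, 11 naive and 127 BLM neutrophils and at most 20 in any of the other 4 classes and libraries. The thinned shares in alveolar macrophages were 0.93% in naive and 2.34% in BLM, and in NK cells 3.36% and 4.05%, with overlapping intervals in both.

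In alveolar macrophages no member was lower by 2-fold or more, against 10.2% of all 10470 genes, and 4 of 30 were higher, against 4.44%. The median of these members was 0.06, and that of all genes -0.19. Ifi27l2a was at 21.9 CPM in naive (152 UMIs in 108 of 667 cells) and 74.6 CPM in BLM (241 UMIs in 113 of 233 cells), log2 1.77 [1.47, 2.07]. Oas1a was at 15.8 and 41.2 CPM (log2 1.38 [1.0, 1.76]), and Ifi204, a DNA sensor of the Ifi200 family, at 18.6 and 47.0 CPM (log2 1.34 [0.99, 1.69]). Rtp4 was the fourth, at log2 1.03. Gbp2, Ddx58 and Samhd1 were the 3 members with an interval below 0, against 31.4% of all genes. Gbp2, a guanylate-binding GTPase, was at 31.2 and 17.0 CPM (log2 -0.88 [-1.33, -0.44]), Ddx58 at 31.2 and 22.9 CPM (log2 -0.45 [-0.85, -0.06]) and Samhd1 at 407 and 356 CPM (log2 -0.19 [-0.29, -0.09]). Isg15 was at 18.3 and 28.2 CPM (log2 0.62 [0.22, 1.02]), with 41 of its 91 BLM UMIs in 3 cells. The intervals of Ifit1 (log2 0.52), Ifit3 (0.40), Irf7 (0.00) and Bst2 (0.05) span 0. The libraries filled different clusters here, with 94.8% of naive alveolar macrophages in cluster 19 and 84.1% of BLM ones in cluster 1, so the values of this class compare cells of different clusters.

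C1q macrophages held 7 members lower and 1 higher by 2-fold or more of 35, against 14.8% of all 10129 genes lower and 11.1% higher (median -0.25 against -0.10). Oas2 was at 37.2 CPM in naive (17 UMIs) and 5.15 CPM in BLM (35 UMIs), log2 -2.85 [-3.73, -1.92], and Ifi203 at 153 and 67.1 CPM (log2 -1.19 [-1.56, -0.81]). Ifit3 was at 30.6 and 6.62 CPM (log2 -2.21 [-3.10, -1.23]), but its 14 naive UMIs all came from 3 cells. Isg15 was at 37.2 CPM in naive (17 UMIs) and 61.4 CPM in BLM (417 UMIs), log2 0.72 [0.03, 1.52]. Ifi27l2a was at 304 and 225 CPM (log2 -0.43 [-0.68, -0.17]), and Irf7 (-0.23), Ifit1 (-0.25) and Bst2 (-0.16) had intervals that span 0. BLM cells lay mostly in cluster 3 (63.2%) and naive ones in cluster 6 (64.9%), and 550 of 614 BLM cells against 12 of 77 naive ones had a UMI of Spp1 or Gpnmb, genes of macrophages in injured lung. Among cells with neither gene the order turned, with 2246 CPM [2091, 2410] in 65 naive cells and 2622 CPM [2458, 2794] in 64 BLM cells. Cells with either gene stood at 1478 CPM [1261, 1721] in naive and 1507 CPM [1477, 1537] in BLM. Both genes are also among the markers that set this class. BLM cells with neither gene were shallower (median 5446.5 UMIs) than those with either (11230.5), and the part of depth in this split was not tested.

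In cDC1, 6 of 18 members were higher by 2-fold or more, against 5.73% of all 6108 genes, and 2 were lower, against 8.76% (median 0.53 against 0.01). Ifit2 went from 4.21 CPM in naive (3 UMIs) to 39.8 CPM in BLM (24 UMIs, all in 2 cells), log2 3.24 [1.52, 5.62]. Isg15 was at 21.1 and 66.4 CPM (log2 1.66 [0.77, 2.62]), with 27 of 40 BLM UMIs in 3 cells, and Slfn5 at 82.8 and 171 CPM (log2 1.05 [0.57, 1.53]), with 58 of 103 in 3 cells. Irf7 was at 15.4 and 36.5 CPM (log2 1.24 [0.14, 2.43]) and Bst2 at 56.2 and 84.7 CPM (log2 0.59 [-0.03, 1.23]). Ifi27l2a (108 and 33.2 CPM, log2 -1.70 [-2.49, -0.98]) and Ifi203 (142 and 54.8 CPM, log2 -1.37 [-1.99, -0.79]) were the members lower in BLM, and Ifit1 and Ifit3 were under the minimum.

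In cDC2, 3 of 24 members were lower, against 7.25% of all 6747 genes, and 2 were higher, against 5.75% (median -0.55 against 0.01). Isg15 was at 46.0 CPM in naive and 111 CPM in BLM (log2 1.27 [0.69, 1.87]) and Irf7 at 21.2 and 45.5 CPM (log2 1.10 [0.22, 2.04]), with 43 of 83 and 23 of 34 BLM UMIs in 3 cells. Rsad2 was at 31.1 and 4.01 CPM (log2 -2.96 [-5.33, -1.24]), Slfn5 at 102 and 36.1 CPM (log2 -1.50 [-2.18, -0.86]) and Ifi27l2a at 261 and 174 CPM (log2 -0.59 [-0.91, -0.27]). Bst2 was at 80.9 and 80.2 CPM (log2 -0.01 [-0.54, 0.52]), and Ifit1 and Ifit3 were under the minimum. Cluster 4 held 62.0% of BLM and 85.1% of naive cDC2, and another 26.1% of the BLM cells lay in cluster 3, the macrophage cluster. In NK cells 3 of 19 members were lower, against 7.21% of all 5965 genes, with a median of -0.13 against -0.11. No member there had an interval below 0, against 6.99% of all genes. Ifi203 was at 165 and 263 CPM (log2 0.67 [0.24, 1.10]), and Isg15 (0.11), Irf7 (-0.35), Bst2 (-1.48) and Ifi27l2a (-1.63) had intervals that span 0. Ifit1 and Ifit3 were under the minimum there. ILC2 had 6 members past the minimum, of which Slfn5 was lower (111 and 5.45 CPM, 24 and 1 UMIs, log2 -4.35 [-9.72, -1.74]), against 10.5% of all 3299 genes. Bst2 was at 60.4 and 54.5 CPM in ILC2 (log2 -0.15 [-1.50, 1.16]), and Isg15, Ifit1, Ifit3, Irf7 and Ifi27l2a were under the minimum.

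**Figure D4:**
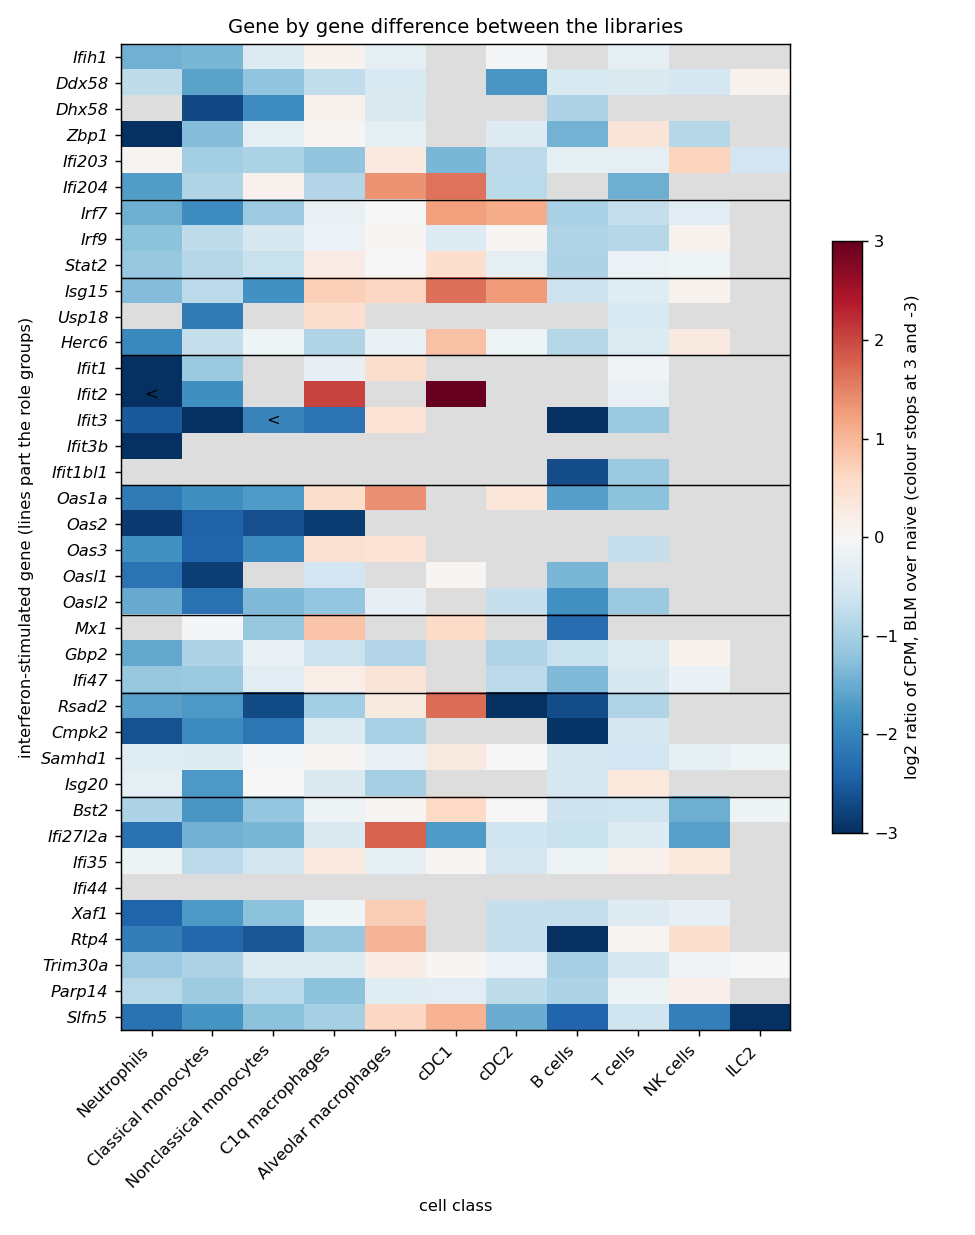
Log2 ratio of CPM, BLM over naive, of each member (rows, by role) in each cell class (columns), with blue for lower and red for higher in BLM and grey where the member had under 20 UMIs over both libraries. A "<" marks a member with no UMI in BLM, coloured at its bound; blue fills the neutrophil and monocyte columns, and the C1q macrophage, alveolar macrophage and cDC1 columns hold both colours.

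Read across the 11 classes, the members differed in how widely they were lower. Slfn5 was lower by 2-fold or more in 7 of 11 classes, Oasl2 in 6 of 8, Rsad2 in 6 of 9, Ifit3 in 6 of 7 and Oas1a in 5 of 8. Oas2 was lower in all 4 classes where it passed the minimum. Samhd1 was within 2-fold in all 11 classes (log2 from -0.57 to 0.27), as was Ifi35, a partner of the factor NMI, in 10 (from -0.78 to 0.32). Isg15, Ifit2 and Ifi204 were each lower by 2-fold or more in 2 classes and higher in 2, and Irf7 was lower in 3 and higher in 2. The log2 ratios of Isg15 ran from -1.81 in nonclassical monocytes to 1.66 in cDC1. Ifi44 did not pass the minimum in any class. The share of all genes called in as many classes was not computed, so these counts across classes have no background beside them.

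The genes that feed the response were read from 6 fixed lists, on the same scale. No count is given here for the list of kinases and factors. Of the 10 sensing adaptors, 4 passed the minimum in neutrophils, with a median log2 ratio of 0.61 against -0.08 for all genes. In C1q macrophages 9 passed, with a median of -0.62 against -0.10. The medians of the other compared classes with an adaptor past the minimum lay between these. Of 9 interferon ligands 3 had a column, and Ifnb1, the gene of interferon beta, had no UMI in any of the 11 classes and 2 in all kept BLM cells. Ifng, made by NK and T cells, was at 79.7 CPM in naive NK cells (53 UMIs) and 169 CPM in BLM NK cells (52 UMIs), log2 1.08 [0.50, 1.66], and at 18.4 and 14.4 CPM in T cells (log2 -0.36 [-1.08, 0.37]). In gamma delta T cells it was at 89.2 CPM in naive (17 UMIs) and 25.4 CPM in BLM (3 UMIs), log2 -1.81 [-4.22, -0.02]. None of the 5 receptor genes past the minimum differed 2-fold in neutrophils or in either kind of monocyte. Of all genes, 5.83% were lower by 2-fold or more in neutrophils, 4.55% in classical and 5.02% in nonclassical monocytes. With only 5 genes, a count of none is near these shares. Ifngr1, a chain of the interferon gamma receptor, had an interval below 0 in neutrophils (log2 -0.36 [-0.60, -0.11]) and classical monocytes (log2 -0.30 [-0.54, -0.07]). In neutrophils Ifnar1 was at 113 and 120 CPM (log2 0.10 [-0.29, 0.49]) and Ifnar2 at 71.1 and 70.8 CPM (log2 -0.01 [-0.50, 0.50]), and in classical monocytes they stood at log2 -0.02 and 0.24. In C1q macrophages 4 of 5 receptor genes had an interval below 0, against 18.5% of all genes, with Ifnar1 lower by more than 2-fold (log2 -1.44 [-1.90, -0.94]).

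Irf1, a factor induced by interferon gamma, was lower in BLM in neutrophils (302 and 149 CPM, log2 -1.02 [-1.30, -0.74]) and in C1q macrophages (log2 -1.63), and its interval spans 0 in both kinds of monocyte. Among the 4 feedback inhibitors, Socs1 had few UMIs in myeloid cells and was higher in BLM T cells (51.2 and 79.8 CPM, log2 0.64 [0.28, 1.01]). Socs3, which is also induced by cytokines other than interferons, was higher in BLM in classical monocytes (97.3 and 269 CPM, log2 1.47 [1.08, 1.87]), nonclassical monocytes (log2 1.61), T cells (log2 1.21) and neutrophils (217 and 349 CPM, log2 0.68 [0.42, 0.95]). It was also higher in BLM alveolar macrophages (10.4 and 36.8 CPM, log2 1.83), and lower in BLM C1q macrophages (394 and 136 CPM, log2 -1.54 [-1.77, -1.30]) and cDC1 (112 and 43.2 CPM, log2 -1.38 [-2.08, -0.73]). In C1q macrophages 3 of the 4 inhibitors were lower by 2-fold or more, against 14.8% of all genes.

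Of the 19 genes led by interferon gamma, 7 passed the minimum in neutrophils, of which 5 were lower by 2-fold or more (median -1.30), against 5.83% of all genes. In classical monocytes 7 passed, of which 2 were lower, against 4.55%, and 1 higher, against 6.22% (median -0.47). The chemokine Cxcl10, which draws T cells, was lower in BLM neutrophils (64.4 and 31.1 CPM, log2 -1.05 [-1.67, -0.43]) and C1q macrophages (87.5 and 41.4 CPM, log2 -1.08), and higher in BLM alveolar macrophages (12.8 and 52.0 CPM, log2 2.02 [1.64, 2.41]), cDC2 (79.6 and 233 CPM, log2 1.55), NK cells (25.6 and 104 CPM, log2 2.02) and T cells (23.6 and 45.4 CPM, log2 0.95). Cxcl9, a chemokine of the same receptor, was at 144 CPM in naive and 11.3 CPM in BLM C1q macrophages (log2 -3.67 [-4.16, -3.17]) and at 13.5 and 4.64 CPM in alveolar macrophages (log2 -1.54). Cells of a class may carry RNA of other classes, and the part of free RNA in these chemokine values was not tested.

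**Figure D5:**
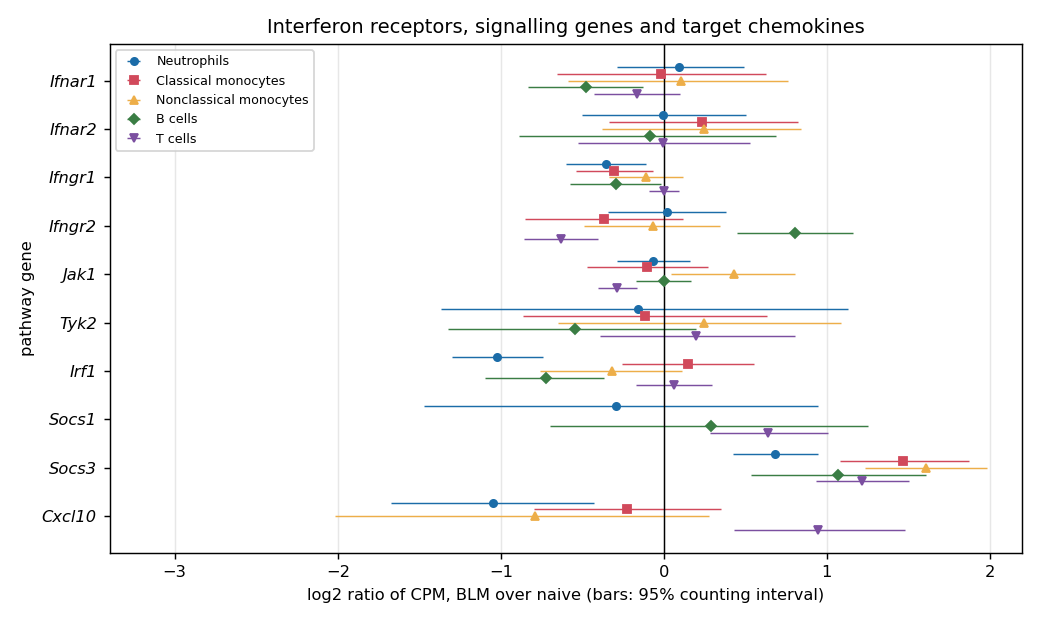
Log2 ratio of CPM, BLM over naive, of interferon receptor, kinase, factor and feedback genes and Cxcl10 in neutrophils, both kinds of monocyte, B cells and T cells, with 95% counting intervals and only genes with 20 or more UMIs. Ifnar1 and Ifnar2 lie near 0 in neutrophils and monocytes, and Socs3 lies above 0 in all 5.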

How the data were processed

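The deposited tables hold raw counts of UMIs per gene and cell, 1 table for the naive and 1 for the BLM library. Per the labels the authors made them with the BD Rhapsody WTA pipeline (version 1.8) against GRCm38 with GENCODE vM19, and a gene absent from a table was taken as 0. The aligner is not given in the sources used here.

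The filter kept cells in which no fewer than 200 genes were found and mitochondrial genes gave up to 15% of UMIs. A cell joined the class with the highest mean scaled marker score where the score was 0.3 or more, the gap to the next class 0.15 or more and 2 or more markers were found; these thresholds were set after seeing the data. No doublets were removed in the main values, and an alternative left out the 3% of cells with the highest Scrublet score in each library (136 BLM and 118 naive). A class was compared if each library held at least 50 of its cells. UMIs were summed per class and library and given as CPM with exact Poisson intervals, shares with exact Clopper-Pearson intervals, and log2 ratios with the exact conditional interval, all at 95% and covering counting error only. With no UMI on 1 side, the fold was taken at a floor of 3 UMIs there, which leaves out the counting error of the other side. Graph clusters came from scanpy 1.11.5, and the other steps used Python 3.11.15, numpy 2.4.6, scipy 1.17.1 and pandas 2.3.3. The ratio and interval code was tested on simulated data. Promoter windows were matched by gene symbol in the RefSeq tables. No value was found for Mx2, and 10 of the members had no promoter entry (Oas2, Mx1, Mx2, Usp18, Ifi27l2a, Dhx58, Zbp1, Rtp4, Parp14 and Ifi204).

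Named with values were 6 fixed members (Isg15, Ifit1, Ifit3, Irf7, Ifi27l2a and Bst2) in every class (or said to be under the minimum), up to 3 members a class at each end by the end of the interval nearer 0, and fixed pathway genes, of which 1 is not reported here. Members, markers and lists were chosen with earlier results of these data known. Alternatives covered the UMI minimum, the mitochondrial limit, graph clusters, doublets, the centring, the most counted members and the highest cells. Values within single graph clusters, without shared cell indexes and without cells with a Spp1 or Gpnmb UMI were added after seeing the data.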

Additional observations from a re-analysis of the deposited data

Results flagged for a closer look

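The summed level of the interferon-stimulated genes was higher in BLM in alveolar macrophages (log2 0.10 [0.04, 0.16]) and in cDC1 (log2 0.25 [0.11, 0.38]), while it was lower in neutrophils (log2 -1.24), so the same contrast had opposite signs. The gaps to neutrophils were 1.34 and 1.49 on the log2 scale. With 1 library per condition these differences between classes were not tested.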

How the results depend on the processing

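Of the alternatives for a class sum, share or count, 156 gave a like value, 55 moved it and 3 turned it. A sum or share was like where it lay within the main interval, and a count where it differed by less than a set factor. A turn was called only for a sum or share whose main interval excluded 0. The change of sign in NK cells without Samhd1, Ifi27l2a and Trim30a (log2 0.03) is thus not among the 3. Single members were run only with the lower mitochondrial limit, a gate of 3 or more markers, the centring and the Scrublet setting. There 298 gave a like value, 3 moved it and none turned it. The settings that turned sums were not run on single members, and a member whose interval spans 0 could not be called turned. The counts for members and for sums therefore cannot be compared. The cause was not tested. The 3 that turned were the sum in C1q macrophages without cells with a Spp1 or Gpnmb UMI (log2 0.22), and the sums in alveolar macrophages (-0.019) and cDC1 (-0.15) without the 5% of cells with the highest member level. That last setting also gave -1.15 in neutrophils, -0.42 in cDC2 and -0.53 in T cells. Without Samhd1, Ifi27l2a and Trim30a the log2 ratios were -1.55 in neutrophils, -1.44 in classical monocytes, -0.93 in nonclassical monocytes, -0.55 in C1q macrophages, 0.17 in alveolar macrophages, 0.42 in cDC1, -0.84 in B cells and -0.64 in ILC2. Centred on the median of all genes they were -1.15 in neutrophils, -0.29 in C1q macrophages, 0.29 in alveolar macrophages, -0.62 in B cells and -0.37 in T cells. As a mean over cells they were -0.82 in classical and -0.43 in nonclassical monocytes, -0.24 in C1q macrophages, -0.46 in cDC2 and -0.37 in T cells. With graph clusters as classes they were -0.70 in classical and -0.44 in nonclassical monocytes, -0.14 in C1q macrophages, 0.18 in alveolar macrophages, -0.49 in cDC2 and -0.74 in ILC2. Within cluster 24 neutrophils stood at -0.98, and within cluster 5 classical monocytes at -0.82. At most 10% mitochondrial UMIs gave -0.50 in C1q macrophages and 3 members lower in T cells. Without the highest Scrublet scores, alveolar macrophages stood at 0.18 with 7 members higher, C1q macrophages had 2 higher and NK cells 1 lower. With a minimum of 50 UMIs, 2 members were higher in cDC1, and 1 was lower in cDC2, 4 in B cells, 2 in T cells and 0 in NK cells and ILC2. With no minimum, 3 were higher in C1q macrophages, 7 in alveolar macrophages, 12 in cDC1 and 4 in cDC2, and 6 were lower in cDC1, 7 in cDC2, 19 in B cells, 7 in NK cells and 11 in ILC2. With no minimum, sparse genes with no UMI on 1 side also count as called. The share of all genes called was computed only in the main setting, so the member counts of the alternatives have no background beside them. For shares of high cells, BLM minus naive in percentage points, unthinned values were -41.0 in neutrophils, -4.08 in classical monocytes, -21.8 in B cells and -16.6 in T cells, and thinning to 500 UMIs gave -30.0 in classical monocytes.

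Counts under the minimum, above all of the IFIT genes in lymphocytes and dendritic cells, limit what these libraries can show, and no replicate library gives the spread between animals. No paired analysis was possible because each condition is 1 library.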

Other observations

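Classes with fewer than 50 cells in a library were not compared, and their summed levels are given as values. Regulatory T cells, which restrain immune responses, stood at 4115 CPM [3710, 4552] in 20 naive cells and 1961 CPM [1812, 2118] in 81 BLM cells. Plasmacytoid dendritic cells, known as the main producers of type I interferon, stood at 3834 CPM [3442, 4258] in 16 naive cells and 2571 CPM [2085, 3136] in 11 BLM cells. Migratory dendritic cells stood at 1608 CPM in 23 naive cells and 1747 CPM in 87 BLM cells, plasma cells at 893 CPM in 16 and 842 CPM in 8 cells, and basophils and mast cells at 1266 CPM in 11 and 621 CPM in 5 cells. Stromal cells that passed the sort stood at 1902 CPM in 25 naive and 1370.1 CPM in 48 BLM cells. Unclassed cells stood at 2854 CPM in 178 naive and 1449 CPM in 436 BLM cells.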
